A study of Mus musculus with 7 samples.

Results

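The genes described here encode the proteins of the mitochondrial respiratory chain (complexes I to IV) and of the ATP synthase (complex V). They were chosen by name: every protein-coding gene of the mitochondrial chromosome, and every nuclear protein-coding gene whose symbol begins with Nduf followed by a subunit letter and a number, is Sdha, Sdhb, Sdhc or Sdhd, or begins with Uqcr, Cox4 to Cox8, or Atp5. This gave 96 of the 47729 genes in the count table, 13 mitochondrial and 83 nuclear, and 1 further gene with a matching symbol was left out by the rule. By complex there were 43 genes in complex I, 4 in complex II, 9 in complex III, 21 in complex IV and 19 in complex V.

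The RNA came from whole forebrain of mice at postnatal day 15 on an F1(C57BL/6 X 129Sv) background. Control animals were Lhx6+/- (4 libraries) and mutants were Lhx6-/- (3 libraries), so the controls also carried a null copy of Lhx6, the gene for a LIM homeodomain factor of interneurons born in the medial ganglionic eminence (MGE). Each library pooled 2 animals. By the labels 2 control pools were male and 2 female, while 2 of the 3 mutant pools were mixed. The null allele (Lhx6tm2Vpa) was carried in the germline, so every cell of a mutant animal had it. The labels call the pools replicates without naming separate litters, and the p-values below measure the spread between these pools only.

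The respiratory chain passes electrons from NADH (complex I) and succinate (complex II) through ubiquinone, complex III and cytochrome c to oxygen at complex IV, and pumps protons across the inner mitochondrial membrane as it does so. ATP synthase lets the protons back and makes ATP. The mitochondrial genome encodes core proteins of complexes I, III, IV and V, while complex II is wholly nuclear, and several complex IV subunits exist as isoforms whose use differs between tissues. Parvalbumin interneurons, a class that Lhx6 specifies, are known for a high content of mitochondria and of cytochrome oxidase.

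Parts of the mitochondrial genome have been copied into the nuclear genome, and some mitochondrial genes shared nearly all of their 36-base words, the length of a read, with an annotated nuclear gene. The copies that mattered here lie side by side on chromosome 1 in the GRCm38 build, on the minus strand. Gm28661 matched mt-Co2, the gene for subunit 2 of cytochrome oxidase, without a mismatch over 681 bases, and Gm29216 matched the last 492 bases of mt-Co1, the gene for the catalytic subunit, with 6 mismatches. The first 36 bases of each matched stretch are shown, 5′ to 3′, because a read from the mt-Co2 stretch carries no base that tells gene and copy apart. Capitals mark bases that differ, and the mt-Co2 pair has none.
mt-Co2 (MT:7013-7048, plus strand): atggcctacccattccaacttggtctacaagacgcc
Gm28661 (chr1:24615530-24615565, minus strand): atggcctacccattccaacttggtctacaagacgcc
mt-Co1 (MT:6381-6416, plus strand): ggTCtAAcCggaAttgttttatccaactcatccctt
Gm29216 (chr1:24616162-24616197, minus strand): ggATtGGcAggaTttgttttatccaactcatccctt
Counted from 1 at the first base of mt-Co1, the differences were T1056A, C1057T, A1059G, A1060G, C1062A and A1066T, and the remaining 479 bases of the copy were identical. Gm28437 matched mt-Co3 over 783 bases, Gm10925 matched mt-Atp6 over 678 bases and Gm10222 matched mt-Nd4l over 294 bases, all without a mismatch. Gm28438 matched mt-Nd3 over 345 bases with the single difference T3C.

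Whole-series facts that bear on the values below are few. The 7 libraries held between 32556304 and 38069151 counts, and 19684 genes passed the filter of at least 10 counts in at least 3 libraries. Lhx6 fell in the mutants by 2.88 on the log2 scale (SE 0.14, adjusted p = 5.99e-05, edgeR quasi-likelihood test), from 476 to 615 normalised counts in the controls to 70.1 to 76.6 in the mutants. Library numbers in the column names fell into a low run (2 and 3 control, 5 mutant) and a high run (10 and 11 control, 12 and 13 mutant). What the numbers stand for is not given in the sources used here. Values within both runs are given for some genes only.

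The nuclear-encoded genes were abundant and the mitochondrially encoded genes more so. Levels were compared between genes per length, as TPM (counts divided by transcript length and scaled to the same sum in each library), and averaged over the 7 libraries. The median of the 80 nuclear members tested was 201 TPM, against 16.1 for all protein-coding genes tested. The highest nuclear level in complex I was that of Ndufa4 (698 TPM), which is grouped by its symbol but is now placed in complex IV. In complex II it was Sdha (244), the flavoprotein that oxidises succinate, in complex III Uqcr11 (620), a small accessory subunit, in complex IV Cox8a (1574), the widely used isoform of the smallest subunit, and in complex V Atp5b (1241), the catalytic beta subunit. Among the mitochondrial genes mt-Co1 was highest at 20964 TPM and mt-Cytb, the cytochrome b of complex III, followed at 9233. The lowest mitochondrial levels were those of mt-Co2 (611) and mt-Co3 (1064), 2 genes with most of their summed counts on a nuclear copy in every library.

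**Figure D1:**
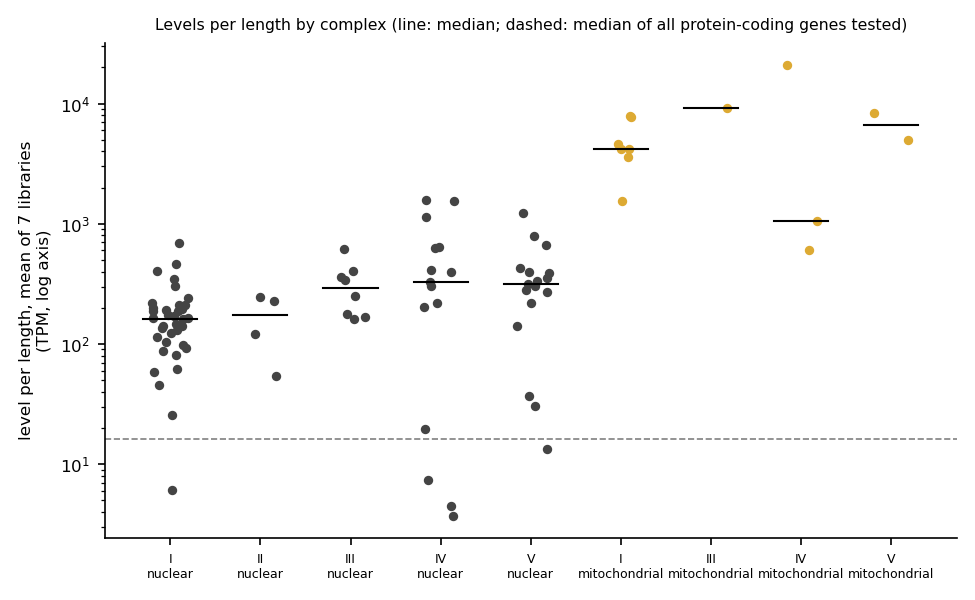
Level per length (TPM, mean of 7 libraries, log axis) of each tested gene, by complex and genome. Each point is a gene, the short line is the group median, and the dashed line is the median of all protein-coding genes tested (16.1). Mitochondrial genes lie above most nuclear ones, and 3 complex IV genes lie below 10.

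In the comparison of mutant with control forebrain, no respiratory chain or ATP synthase gene passed the threshold of an adjusted p of 0.05. Of the 96 genes, 93 passed the filter on low counts, and 0 of 93 were called by edgeR, beside 4.85% of all genes tested (954 of 19684). The median log2 fold change of the 93 genes was 0.00185, beside -0.0128 for all genes tested, and 48 of them had a positive value. At an unadjusted p of 0.05 or less there were 5 of 93 genes (5.38%), beside 18.2% of all genes tested. Control and mutant libraries did not overlap for 5 of 93 genes (5.38%), of which 2 were higher and 3 lower in the mutants, beside 19.7% of all genes tested. Other tools made few calls: DESeq2 called 1 of 93 (Cox7a1), beside 8.79% of all genes, limma-voom called 0 (4 at an unadjusted p of 0.05 or less), and edgeR with the low or high run added as a covariate called 2 of 93 (Cox7a1 and Cox6a2), beside 11.2% of all genes.

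The intervals of these differences were narrow for most genes. The 95% confidence interval of the log2 fold change lay within 0.5 of 0 for 69 of 93 genes (74.2%), while 42.0% of all genes tested reached this. It lay within 1 of 0 for 89 of 93. The median half-width was 0.258, beside 0.354 for all genes tested. For 80 of 93 genes the fold change itself was under 0.2 in either direction. In bulk tissue, fewer cells of a type and less RNA per cell cannot be told apart.

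**Figure D2:**
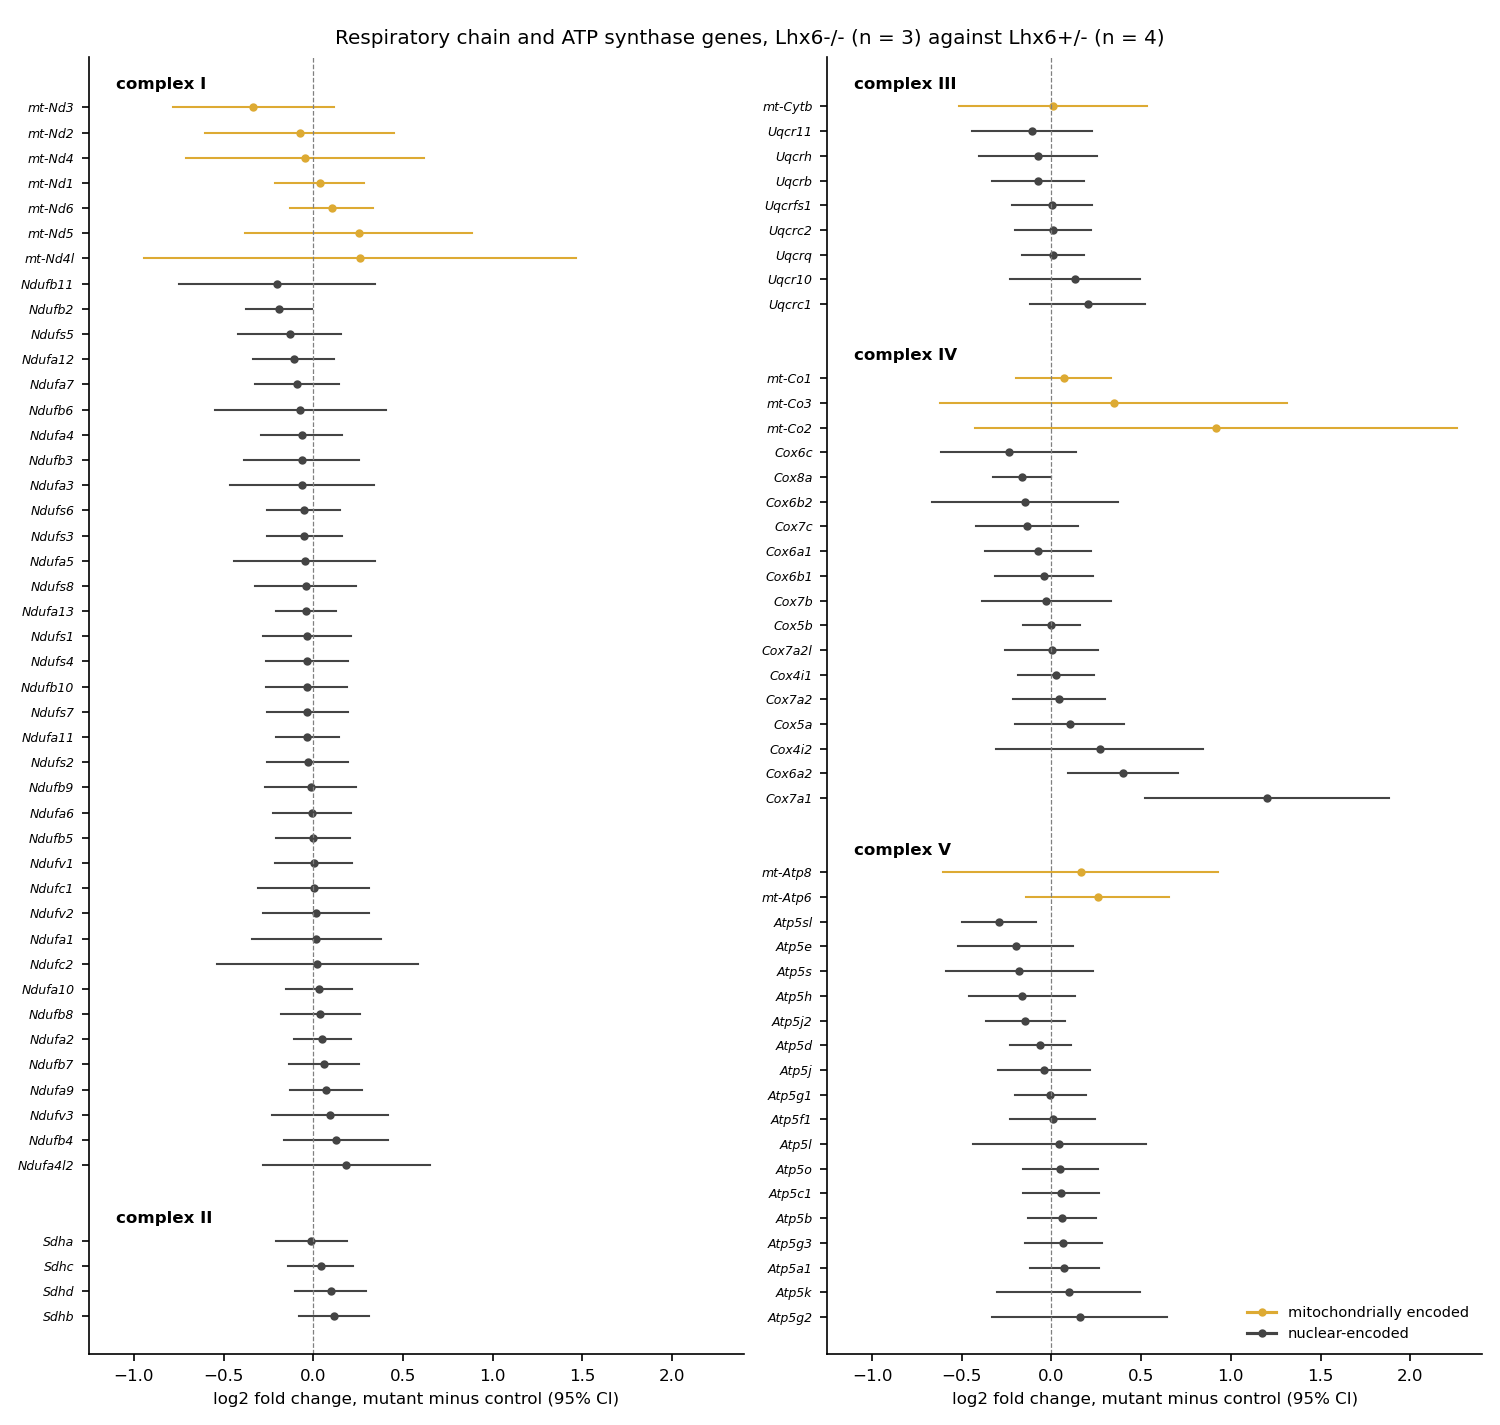
Log2 fold change (mutant minus control, points) with its 95% confidence interval (lines) for the 93 tested genes, by complex, sorted within each genome. Most nuclear genes lie close to 0, Cox7a1 and Cox6a2 lie to the right, and the widest intervals belong to mitochondrial genes with nuclear copies.

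In complex I, where electrons from NADH enter, 0 of 43 genes were called and 1 had an unadjusted p of 0.05 or less. The 36 tested nuclear genes ran from -0.20 for Ndufb11 (SE 0.24, adjusted p = 0.743, edgeR) to 0.18 for Ndufa4l2 (SE 0.20, adjusted p = 0.724). Ndufb11 is a membrane-arm accessory subunit, and Ndufa4l2 is a paralogue of Ndufa4. The runs of library numbers separated Ndufb11, which was at -0.11 within the low run and -0.06 within the high run. Ndufa4l2 was at -0.11 within the low run and 0.51 within the high run. The 7 core nuclear subunits, which carry the flavin and the iron-sulphur clusters or hold the quinone site, lay between -0.05 and 0.02, with every 95% interval within 0.5 of 0. Ndufs1, which holds iron-sulphur clusters of the electron path, had 3835, 5082, 4195 and 3887 normalised counts in controls 2, 3, 10 and 11 and 4222, 4038 and 4164 in mutants 5, 12 and 13, and the 2 genotypes overlapped. Ndufb2, another membrane-arm subunit, was the complex I gene with the smallest p. It had 1811, 1966, 1749 and 1675 normalised counts in the controls and 1633, 1483 and 1612 in the mutants. All mutants lay below all controls, by a narrow margin between control library 11 and mutant library 5. Its log2 fold change was -0.19 (SE 0.08, adjusted p = 0.253, edgeR).

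Complex II, the only complex with no mitochondrially encoded part, had 0 of 4 genes called, with edgeR and with DESeq2, and 0 at an unadjusted p of 0.05 or less. Its values lay between -0.01 for Sdha and 0.11 for Sdhb, its iron-sulphur subunit (SE 0.09, adjusted p = 0.56, edgeR). Sdhb had 3526, 4203, 4148 and 3814 normalised counts in the controls and 4053, 4330 and 4361 in the mutants, which overlap. Sdhc and Sdhd anchor the complex in the membrane, and their log2 fold changes were 0.04 and 0.10. All 4 intervals lay within 0.5 of 0.

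In complex III 0 of 9 genes were called and 0 had an unadjusted p of 0.05 or less. The 8 nuclear genes ran from -0.11 for Uqcr11 to 0.20 for Uqcrc1 (SE 0.14, adjusted p = 0.53, edgeR), a core protein of the matrix side. Uqcrc1 had 6767, 7418, 9254 and 9069 normalised counts in controls 2, 3, 10 and 11 and 7906, 10442 and 9702 in mutants 5, 12 and 13. Its genotypes overlapped while the runs of library numbers did not, and every library from 10 to 13 was higher than libraries 2, 3 and 5. The Rieske protein Uqcrfs1, which passes electrons to cytochrome c1, had a log2 fold change of 0.00 (SE 0.10).

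Complex IV held the members with the largest fold changes, with 0 of 18 genes called by edgeR and 3 at an unadjusted p of 0.05 or less. Cox7a1 is the heart and skeletal muscle isoform of subunit 7a, and its transcript was rare in this forebrain, at 4.50 TPM. It had 19.7, 16.1, 30.7 and 19.3 normalised counts in controls 2, 3, 10 and 11 and 64.2, 45.5 and 38.82 in mutants 5, 12 and 13. Every mutant library lay above every control library, and mutant library 5 lay highest. The means were 21.5 ± 6.38 (SD, n = 4) and 49.5 ± 13.1 (SD, n = 3), and the log2 fold change of 1.20 (SE 0.30, 95% interval 0.52 to 1.88) had an adjusted p of 0.0594 with edgeR, just short of the threshold. The call depended on the method: the adjusted p was 0.0213 with DESeq2, 0.0577 with limma-voom, 0.0403 with the low or high run added as a covariate in edgeR and 0.0359 in edgeR with the filter applied to all 7 libraries. Within the low run of libraries the log2 difference was 1.79 and within the high run it was 0.76.

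Cox6a2, the heart and muscle isoform of subunit 6a, was more abundant at 19.6 TPM. It had 202, 187, 179 and 157 normalised counts in the controls and 266, 228 and 223 in the mutants, with no overlap between the genotypes. The log2 fold change was 0.40 (SE 0.13, adjusted p = 0.152, edgeR), and 0.45 within the low run and 0.42 within the high run. With the low or high run added as a covariate its adjusted p was 0.031 in edgeR, and with DESeq2 it was 0.114. Part of its sequence (10.3% of exon bases) overlaps a gene on the other strand, and reads of the 2 genes may not have been told apart.

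The remaining tested tissue-restricted isoforms had intervals that included 0. Those of Cox4i2 (-0.31 to 0.84) and Ndufa4l2 (-0.28 to 0.65) also included the Cox6a2 value of 0.40. A difference from Cox6a2 was not tested. Cox4i2, the isoform of subunit 4 known from lung, had a log2 fold change of 0.27 (SE 0.25), Ndufa4l2 had 0.18, and Cox6b2, known from testis, had -0.15 (SE 0.23), and all 3 overlapped between genotypes. Cox7b2, Cox8b and Cox8c did not pass the filter. Cox7b2 had between 5.18 and 13.3 normalised counts per library, Cox8b at most 5.02, and Cox8c was at 0 in all libraries but control library 3, which had 3.01. Counts at or below 3 per library allow no fold. Of the 8 tissue-restricted isoforms 5 were tested, with 0 called by edgeR, 1 by DESeq2, 2 at an unadjusted p of 0.05 or less and a median log2 fold change of 0.27.

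The widely expressed partners of these isoforms were far more abundant. For the 5 pairs with a tested restricted isoform, the level per length of the partner was 67.7 to 308 times as high. The 7 widely expressed genes (Cox4i1, Cox6a1, Cox6b1, Cox7a2, Cox7b, Cox8a and Ndufa4) had a median log2 fold change of -0.04, and all 7 intervals lay within 0.5 of 0. Cox7a2, the counterpart of Cox7a1, stood at 305 TPM with a log2 fold change of 0.04 (SE 0.11), and Cox6a1, the counterpart of Cox6a2, at 1539 TPM with -0.07 (SE 0.13). Cox8a was the exception in its ordering. It had 14090, 13733, 14144 and 13670 normalised counts in the controls and 12760, 12342 and 12160 in the mutants, so that all mutants lay below all controls. The difference was -0.16 on the log2 scale (SE 0.07, adjusted p = 0.265, edgeR). The lowest log2 fold change of complex IV was that of Cox6c at -0.24 (SE 0.16, adjusted p = 0.524), where control library 3 lay far above the other controls.

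Because Cox7a1 and Cox6a2 are known from muscle, markers of skeletal and cardiac muscle are given beside them. Of 17 such markers 11 were tested, and 1 rose (Tnnc2, by 3.51 on the log2 scale) and 2 fell (Myl1 by 2.71 and Myh4 by 1.71). Without mutant library 12 or mutant library 13, or with the filter on all libraries, 1 of them was called, and with the run as a covariate 5 were. Their summed level per length ran from 18.5 to 25.9 TPM in the controls and from 25.5 to 27.9 in the mutants, and the groups overlapped. Levels differed between muscle genes. Actc1 was at most 0.05 TPM, Ckm at most 0.25 and Mb at most 0.63 in any library, while the 11 tested markers passed the filter. Endothelial markers moved in the same direction as Cox7a1. All 10 had a positive log2 fold change (median 0.33), 0 of 10 were called by edgeR, 3 by DESeq2, 6 with the run as a covariate and 2 without control library 3, 6 had an unadjusted p of 0.05 or less, and their summed level ran from 252 to 275 TPM in the controls and from 333 to 356 in the mutants without overlap. Astrocyte markers, given below, also moved mostly in this direction, with 9 of 10 positive (median log2 fold change 0.21). The part of muscle, endothelial cells or astrocytes in the Cox7a1 and Cox6a2 values was not tested.

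**Figure D3:**
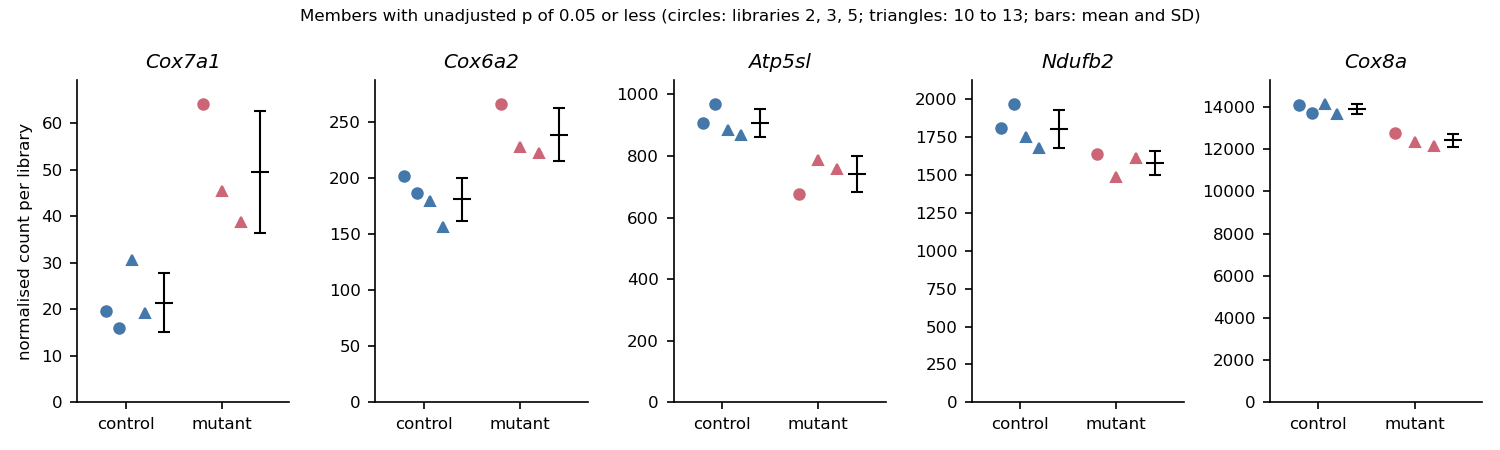
Normalised counts per library of the 5 genes with an unadjusted p of 0.05 or less, each on its own axis from 0. Points are libraries (circles 2, 3 and 5, triangles 10 to 13) and the bars show mean and SD. In each panel the 4 control and 3 mutant libraries do not overlap, and only Cox7a1 differs by more than 2-fold.

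In complex V 0 of 19 genes were called and 1 had an unadjusted p of 0.05 or less. The 17 nuclear genes ran from -0.29 for Atp5sl to 0.16 for Atp5g2 (SE 0.21), one of several genes for the membrane c-ring subunit. Atp5sl carries an ATP synthase symbol but its product is now known as a factor that helps assemble the membrane arm of complex I. It had 906, 969, 886 and 867 normalised counts in the controls and 675, 788 and 758 in the mutants, and all mutants lay below all controls. The log2 fold change was -0.29 (SE 0.09, adjusted p = 0.12, edgeR), and it was -0.47 within the low run and -0.18 within the high run. The catalytic subunits showed tight values: Atp5b had 33764, 39763, 36674 and 34292 normalised counts in the controls and 37218, 38061 and 37723 in the mutants, a log2 fold change of 0.06 (SE 0.08), and Atp5a1, the alpha subunit, had 0.07 (SE 0.09). The 2 sets overlapped for both genes.

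The mitochondrially encoded genes together held 3.51% ± 0.64 (SD, n = 4) of counts in the controls and 3.75% ± 0.461 (SD, n = 3) in the mutants. The share ran from 2.78% to 3.26% in libraries 2, 3 and 5 and from 3.82% to 4.19% in libraries 10 to 13, so the runs of library numbers separated it and the genotypes did not. The nuclear members held 0.946% ± 0.0899 and 0.958% ± 0.0265.

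Gene by gene, 0 of 13 mitochondrial genes were called by edgeR or by DESeq2, 0 had an unadjusted p of 0.05 or less, and none separated the genotypes. With the run as a covariate in edgeR 0 were called, and 3 had an unadjusted p of 0.05 or less. These were mt-Nd4 (-0.19), mt-Atp6 (0.30) and mt-Co2 (0.54), beside 5043 of all 19684 genes tested. Among the 7 complex I genes, mt-Nd1 (log2 fold change 0.04, SE 0.11), mt-Nd2 (-0.07, SE 0.23), mt-Nd4 (-0.05, SE 0.29) and mt-Nd6 (0.10, SE 0.10) lay nearest to 0. mt-Nd5 (0.25, SE 0.28) and mt-Nd4l (0.26, SE 0.53) were higher with wide errors. mt-Nd3 had the lowest value, -0.33 (SE 0.20, adjusted p = 0.437, edgeR). mt-Cytb of complex III was at 0.01 (SE 0.23), and mt-Atp8 and mt-Atp6, membrane subunits of the ATP synthase, were at 0.16 (SE 0.34) and 0.26 (SE 0.18). The 3 cytochrome oxidase genes were at 0.07 (SE 0.12) for mt-Co1, 0.92 (SE 0.59, adjusted p = 0.488, edgeR) for mt-Co2 and 0.35 (SE 0.43) for mt-Co3. The mt-Co3 value had no steady direction. It was 1.24 within the low run and -0.48 within the high run, and -0.49 to 0.71 when single libraries were left out.

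The values of mt-Co2, mt-Co3, mt-Atp6, mt-Nd3 and mt-Nd4l have to be read with their nuclear copies, whose matches are given above. The counts are RSEM estimates, in which a read that matches several transcripts is divided between them. mt-Co2 itself had 2436, 2471, 7302 and 6702 normalised counts in controls 2, 3, 10 and 11 and 2700, 7947 and 16124 in mutants 5, 12 and 13. Gm28661, its copy, had 100494, 146416, 193320 and 183523 in the controls and 108913, 166464 and 179938 in the mutants. Thus between 91.8% and 98.3% of the summed counts lay on the copy, and the high value of mutant library 13 went with the lowest share on the copy. With gene and copy summed, the mt-Co2 fold change went from 0.92 to 0.00 (SE 0.25).

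The same held in part for the other genes. The copy held 76.0% to 96.9% of the summed counts of mt-Co3, where mutant library 5 had 27432 counts on the gene against 6210 to 13468 in the others, and the fold change went from 0.35 to 0.02 (SE 0.29) on summing. For mt-Atp6 the copy held 43.9% to 81.9%, and the fold change went from 0.26 to 0.14 (SE 0.29). mt-Nd3 had 6117, 9583, 10878 and 10191 normalised counts in the controls and 6973, 8596 and 6322 in the mutants. Its copy was at 0 in libraries 2, 3 and 5 and held up to 58.2% in mutant library 13, and the fold change went from -0.33 to 0.03 (SE 0.33) on summing. For mt-Nd4l the copy held 0.159% to 23.8%, and the fold change went from 0.26 to 0.15 (SE 0.53) on summing. For mt-Co1 the copy held 0.0601% to 15.3%, and the fold change changed from 0.07 to 0.09. Gm28439 matched mt-Nd4 over 876 bases but was at 0 in all 7 libraries. With the copies added, 0 of 13 mitochondrial genes were called, and their share of counts with the copies was 4.87% ± 1.16 in the controls and 5.18% ± 1.05 in the mutants.

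**Figure D4:**
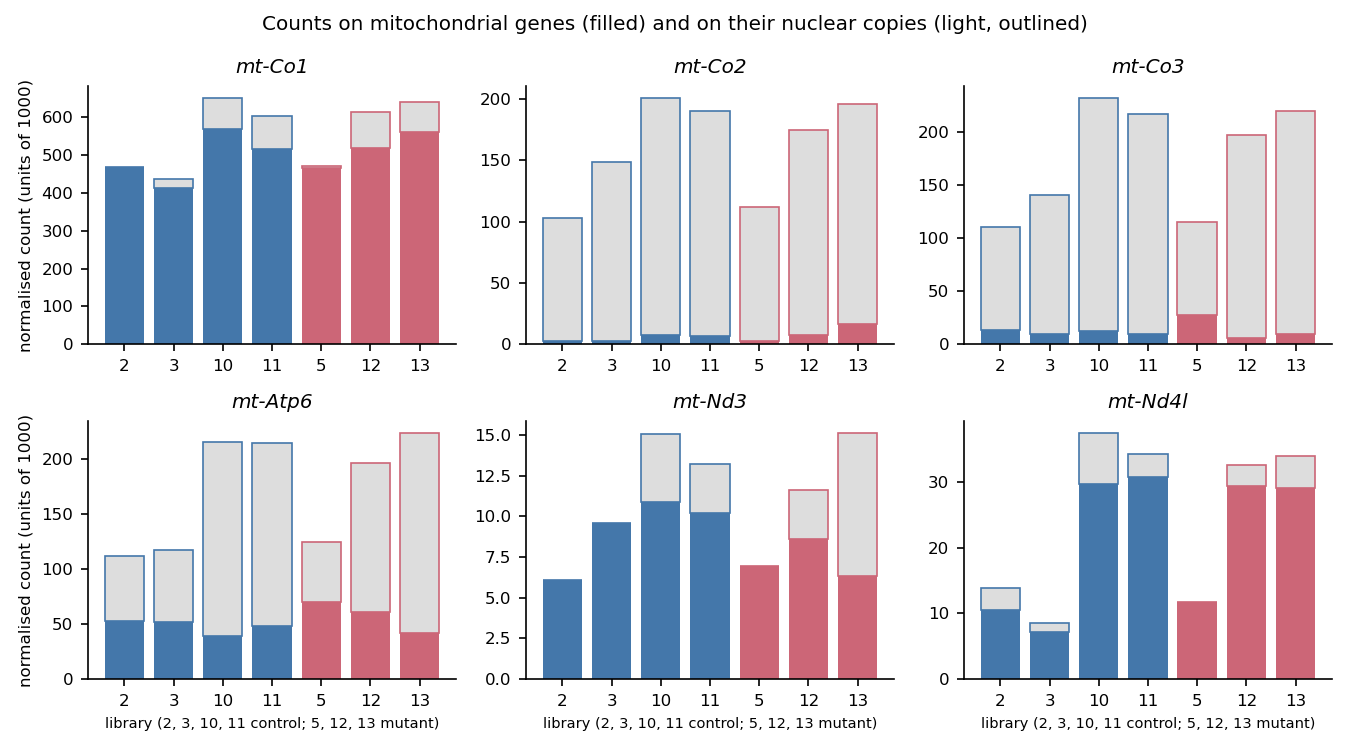
Normalised counts, in units of 1000, in each library on 6 mitochondrial genes (filled, blue control, red mutant) and on their nuclear copies (light, outlined). For mt-Co2 and mt-Co3 the copy takes most of each bar, and the summed bars are lower in libraries 2, 3 and 5 than in 10 to 13 for all 6 genes.

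The runs of library numbers separated more of these genes than genotype did. Libraries 2, 3 and 5 did not overlap with libraries 10 to 13 for 38 of 93 genes (40.9%), beside 23% of all genes tested, with 16 higher and 22 lower in the high run. The difference between runs was larger than the difference between genotypes for 72 of 93 genes. Among the 13 mitochondrial genes 9 were higher in every library of the high run than in any library of the low run, and their median absolute run difference was 0.62 on the log2 scale, beside a median absolute fold change of 0.16 between genotypes. mt-Nd4l differed most among genes that were not mostly on a copy. Without its copy it had 10601, 7187 and 11784 normalised counts in libraries 2, 3 and 5. In libraries 10 to 13 it had 29671, 30820, 29466 and 29043. Both runs hold both genotypes, so the genotype comparison was also made with the run as a covariate and within the high run alone. Within the high run, mt-Nd3 was called (-0.49, adjusted p = 0.0459, edgeR), with the counts of its copy not added.

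**Figure D5:**
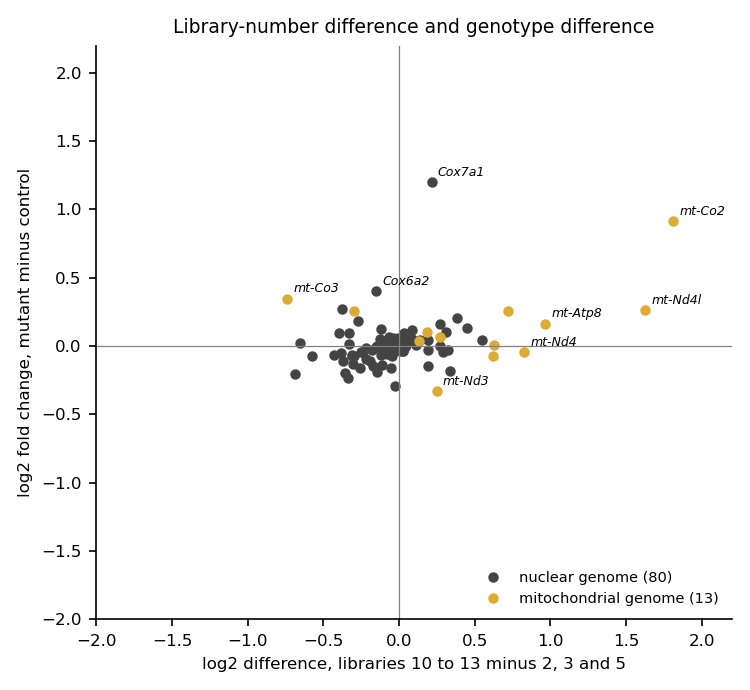
Log2 fold change between genotypes (vertical) against the log2 difference between libraries 10 to 13 and libraries 2, 3 and 5 (horizontal) for the 93 tested genes, on equal scales. Mitochondrial genes spread along the horizontal axis, and Cox7a1 stands alone near the top.

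Nuclear members also shared sequence with other genes. Of the 96 genes, 48 shared at least 5% of their 36-base words with other annotated transcripts, among them Atp5o (47.3%), Atp5g2 (39.7%) and Ndufb6 (33.7%), and reads of these genes may be divided with processed copies elsewhere in the genome. The 45 tested genes below that limit had 0 calls with edgeR, 1 with DESeq2, 3 at an unadjusted p of 0.05 or less and a median log2 fold change of 0.02.

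The promoters of the nuclear genes were examined for features that the choice by name did not use. NRF1, GABPA and YY1 are transcription factors known to bind promoters of respiratory chain genes. Windows of 250 bases before to 50 bases after the RefSeq gene start (GRCm38.p6) were found for 68 of 83 nuclear genes. The NRF1 motif (a 10-letter palindrome-like site with a free base in it), on either strand, was in 16 of 68 windows (23.5%), beside 5.19% of all 27025 genes with a window and 7.17% of protein-coding ones. CCGGAAG, the core bound by GABPA and other ETS factors, was also in 16 of 68 (23.5%), beside 9.93% of all genes and 12.9% of protein-coding ones. AAGATGGCG, the YY1 motif, was in 8 of 68 (11.8%), beside 1.64% of all genes and 2.14% of protein-coding ones. In all, 34 of 68 genes held at least 1 of the 3 motifs, and 4 held both the NRF1 and the ETS motif. A match describes letters in a window and does not show that a factor binds. For Sdha, Sdhd and Cox6a1, which come from complexes II and IV, 60 bases around an NRF1 match are shown as examples, 5′ to 3′ on the gene's strand, with the match in capitals.
Sdha (chr13:74350304-74350363, minus strand, match 98 bases upstream of the start): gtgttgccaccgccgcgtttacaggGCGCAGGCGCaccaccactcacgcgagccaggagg
Sdhd (chr9:50603894-50603953, minus strand, match 79 bases upstream): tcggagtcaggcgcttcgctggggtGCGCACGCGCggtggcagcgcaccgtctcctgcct
Cox6a1 (chr5:115349086-115349145, minus strand, match 162 bases upstream): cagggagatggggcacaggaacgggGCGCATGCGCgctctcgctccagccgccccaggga
Sdha held further matches 55 and 10 bases upstream. The log2 fold changes of these 3 genes were -0.01, 0.10 and -0.07.

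Genes that act on the respiratory chain from outside the rule were counted in lists. Of 12 nuclear regulators tested 0 were called by edgeR, 2 by DESeq2 and 3 with the run as a covariate, and 3 (25%) had an unadjusted p of 0.05 or less, beside 18.2% of all genes tested. Nrf1 (-0.11), Gabpa (-0.04), Yy1 (-0.04) and the coactivator Ppargc1a (-0.07) had adjusted p-values from 0.625 to 0.854 with edgeR. Esrrb, an orphan receptor that binds the same DNA element as the oestrogen-related receptor alpha, came nearest to the threshold. It had 73.5, 77.3, 84.4 and 76.2 normalised counts in the controls and 132, 127 and 105 in the mutants, without overlap, and a log2 fold change of 0.64 (SE 0.15, adjusted p = 0.0509, edgeR, and 0.0222 with DESeq2). Nrip1, a corepressor of nuclear receptors, had 1806, 1665, 1826 and 1870 in the controls and 1552, 1434 and 1417 in the mutants, a log2 fold change of -0.29 (SE 0.08, adjusted p = 0.0688, edgeR, and 0.0117 with DESeq2). Esrrb was thus higher and Nrip1 lower in every mutant library than in any control library.

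Of 14 genes for mitochondrial transcription and replication 0 were called by edgeR and 1 by DESeq2, 4 (28.6%) had an unadjusted p of 0.05 or less, and 12 had a negative value (median -0.18). Peo1, the mitochondrial DNA helicase, had 576, 671, 496 and 531 normalised counts in the controls and 449, 394 and 397 in the mutants, without overlap. Its log2 fold change was -0.46 (SE 0.13, adjusted p = 0.088, edgeR, and 0.0199 with DESeq2). Polg2 and Polg, the accessory and catalytic subunits of the mitochondrial DNA polymerase, had -0.51 (SE 0.17, adjusted p = 0.157) and -0.16 (SE 0.07, adjusted p = 0.269). Mterf2, of the mitochondrial termination factor family, had -0.34 (SE 0.13, adjusted p = 0.197). Tfam, which packages and transcribes the mitochondrial genome, had -0.10 (adjusted p = 0.715) and the polymerase Polrmt -0.05 (adjusted p = 0.857).

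Assembly factors numbered 44 tested, with 0 called by edgeR or DESeq2, 2 at an unadjusted p of 0.05 or less, 10 positive values and a median log2 fold change of -0.10. Bcs1l, which inserts the Rieske protein into complex III, had the smallest p (-0.27, SE 0.11, adjusted p = 0.228, edgeR), and Ndufaf2, a complex I assembly factor, had the lowest value of those named by the rule (-0.44, SE 0.20, adjusted p = 0.283). The mobile carrier Cycs, cytochrome c, had -0.27 (SE 0.13, adjusted p = 0.292), and of the 5 carriers and subunits outside the naming rule 0 were called and 0 had an unadjusted p of 0.05 or less. Coenzyme Q synthesis (13 genes), the tricarboxylic acid cycle (13) and outer membrane and metabolite carriers (12) had 0 calls each with edgeR and DESeq2, with 1, 0 and 0 genes at an unadjusted p of 0.05 or less and medians of -0.01, 0.02 and 0.01. Cytosolic ribosomal protein genes, another set of abundant housekeeping genes, had 0 calls among 90 tested with edgeR and DESeq2, 2 at an unadjusted p of 0.05 or less and a median of -0.01. In glycolysis 1 of 16 genes was called. Pfkl, a phosphofructokinase subunit, had 5316, 6029, 5556 and 5492 normalised counts in the controls and 4019, 4323 and 3921 in the mutants, a fall of 0.45 on the log2 scale (log2 fold change -0.45, SE 0.08, adjusted p = 0.0153, edgeR) without overlap. Without mutant library 5 or mutant library 13 the pathway lists held 0 calls.

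Markers of several cell types were called while the respiratory chain genes were not. Of 12 MGE interneuron markers 8 fell and 1 rose (Tac1), and their summed level per length went from 934 to 1134 TPM in the controls to 365 to 391 in the mutants. These 9 calls became 3 without mutant library 13, 4 without control library 2, control library 10 or mutant library 12, and 5 without control library 11 or mutant library 5. Of the astrocyte markers 1 of 10 rose (Gfap, by 1.95 on the log2 scale), and of the oligodendrocyte markers 3 of 11 fell (Mbp, Mag and Cnp). The astrocyte count was 3 with DESeq2 or the run as a covariate, and 4 in libraries 10 to 13 alone. The oligodendrocyte count was 0 without mutant library 13, 1 without mutant library 5, and 7 with the run as a covariate or in libraries 10 to 13 alone. Further, 0 of 9 microglial, 0 of 10 choroid plexus and 0 of 7 erythroid markers were called, with 2, 1 and 0 at an unadjusted p of 0.05 or less, and with the run as a covariate 1, 0 and 5 were called. The summed levels of astrocyte markers ran from 1843 to 2381 in the controls and from 3207 to 3365 in the mutants, and those of oligodendrocyte markers from 6792 to 7938 and from 4969 to 5640. The part of these shifts in the values of the respiratory chain genes was not tested.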

How the data were processed

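Total RNA from pooled P15 forebrains was sequenced as 36-base single-end reads. The authors trimmed reads with cutadapt (1.9.1 per the submitters' processing notes), aligned them to the Ensembl GRCm38.84 transcriptome with Bowtie2 (2.2.9) and deposited RSEM (1.2.31) expected counts per gene. Their DESeq2 fold changes and p-values were not used, only the gene symbols beside them. Counts were rounded and tested with edgeR 4.0.16 (R 4.3.3, TMM, quasi-likelihood test, at least 10 counts in at least 3 libraries, Benjamini-Hochberg threshold 0.05), and scripts were tested on simulated data. Alternatives were DESeq2 1.42.0, limma-voom (limma 3.58.1), other scalings and filters, a run covariate, a length trend and leaving out libraries. Adding nuclear copies was chosen after seeing the data. TPM used the transcript with the longest coding sequence. Rps6k genes and Rps19bp1 were left out of the ribosomal list. Columns were matched to genotype only, and replicate libraries differed by more than sampling noise. Members and lists were chosen with earlier results of these data known. By rule the text names the mitochondrial genes, the isoforms, each complex's extremes and highest level, and up to 4 genes of a pathway list by p. The genes with the smallest p, the steady subunits and those with shared sequence were named after their values were seen. Intervals cover the spread between pools, and a floor of 3 counts per library was used.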

Additional observations from a re-analysis of the deposited data

Results flagged for a closer look

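Among the 93 tested genes, 3 had a control library far from the other 3 controls, judged by the gap to the nearest library over the range of the group, and chance alone marks about 1 in 20 groups. All 3 were in control library 3. Cox7c, a small complex IV subunit, had 3607 normalised counts there and 2608 to 2656 in the other controls. Cox6c, another small complex IV subunit, had 7160 there and 4549 to 4978 in the others. mt-Nd1, a complex I gene, had 94603 there and 121598 to 125020 in the others. Mutant libraries, 3 in number, were too few for this check.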

How the results depend on the processing

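Across 19 alternative settings, 3 of the 93 genes passed the threshold in at least 1 setting (Cox7a1, Cox6a2 and mt-Nd3). All genes called numbered 954, and 1731 with DESeq2, 2205 with the low or high run as a covariate, 1922 in libraries 10 to 13 only, and 302 to 971 when single libraries were left out, with 458, 387 and 302 without mutant library 5, 12 or 13 and 513 and 589 without control library 10 or 11. Members called numbered 0, and 1 with DESeq2, 1 with the filter on all libraries, 2 with the run covariate and 1 in libraries 10 to 13 only, in 1 complex each time, and 0 whichever single library was left out. Members at an unadjusted p of 0.05 or less numbered 5, and 3 with upper quartile scaling, library totals, no filter or the filter on all libraries, 4 with the length trend removed, 8 with the run covariate, 13 in libraries 10 to 13 only and 3 to 4 when single libraries were left out (3 without control library 10, mutant library 5 or mutant library 12). The pathway lists held 231 genes, of which not all were tested (90 of 102 ribosomal protein genes were). Of these 1 was called, and 2 with RLE size factors, upper quartile scaling, library totals, the filter on all libraries or nuclear copies added. There were 3 with the length trend removed, 4 with DESeq2, 5 in libraries 10 to 13 only and 6 with the run covariate. When single libraries were left out there were 0 to 2 (0 without mutant library 5 or 13, 2 without control library 3). The cause of these shifts was not tested. The mitochondrial share differed by 0.239 percentage points, and by -0.0071 (without control library 3) to 0.485 (without mutant library 5) when single libraries were left out. The direction of 2 values reversed: mt-Nd3 to 0.0326 with its copy added, and Cox7c to 0.0323 in libraries 10 to 13 only. Reversal was judged only where the change exceeded its standard error, and of the 72 members below that, 53 changed sign in some setting. No paired analysis was possible because the columns carry library numbers and not the replicate numbers of the labels. Depth limits Cox7b2, Cox8b and Cox8c, and sequence shared with nuclear copies limits mt-Co2, mt-Co3, mt-Atp6, mt-Nd3 and mt-Nd4l.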
